A study of Mus musculus with 3 samples.

Results

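Glycolysis splits glucose into pyruvate and yields ATP, and the genes described here cover it from the glucose transporters that bring the sugar into the cell to the lactate dehydrogenases and monocarboxylate transporters that dispose of the product. The set also holds the pyruvate dehydrogenase kinases, which inhibit pyruvate dehydrogenase. Enzymes of the pentose phosphate pathway, which draws on glucose 6-phosphate to make NADPH and ribose, are in it too. In the mammary epithelium glucose is also the precursor of lactose, and many glycolytic genes are known targets of the hypoxia-inducible factor Hif1. The set is a list of 40 genes with these functions, drawn up with earlier results of these data known, and its probes were found by gene name or by the RefSeq accession of the probe, with no use of array values. Of the 40 genes, 39 had a probe, and their 70 probes stand among 41174 probes for 30337 gene names on the arrays. Gapdh, the glyceraldehyde phosphate dehydrogenase, had no probe under this rule and has no value here. Several genes carry older names on the arrays, where Ldha is Ldh1, Ldhb is Ldh2 and Pfkfb4 is C230090D14, while Pkm2 is the current Pkm.

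RNA came from EpH4-PR cells, the EpH4 mouse mammary epithelial line with stable, constitutive expression of the A form of the progesterone receptor (PR), grown as selected transfectants in DMEM with 10% FBS to about 75% confluence. It was labelled with Cy5 and hybridised on 3 Agilent arrays against one commercial mouse reference RNA (Stratagene mouse standard) in Cy3, with no dye swap. Every value below is therefore a level in EpH4-PR cells relative to that reference and not an effect of PR, since arrays of the control line EpH4-EV were not analysed here. The labels number the arrays as 3 replicates and do not say whether they came from separate cultures, so the p-values may measure technical spread alone. A lower ratio can reflect fewer expressing cells or less RNA per cell, which cannot be told apart in bulk RNA. Ratios are on the log2 scale, after background correction and loess normalization within each array. A probe was called higher or lower at a limma Benjamini-Hochberg adjusted p under 0.05 together with a log2 ratio of at least 1 in size, which is a fold of 2.

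The arrays agreed closely on these genes. Across the 70 probes the Pearson correlation between arrays lay between 0.984 and 0.988, a description across probes of the same 3 libraries, and the 59 member probes that every array measured well above background in both channels had a median SD of 0.079. The median Cy5 signal over all probes was 93.3 to 113 and the median Cy3 signal 108 to 141, and no probe of the set was saturated. The epithelial label was borne out by its markers. All 7 probes of Cdh1, Cldn4, Epcam, Krt7, Krt8 and Krt18 were called higher than the reference, from 1.12 to 4.29, against 2.26% of all probes.

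Relative to the reference, genes of glucose uptake, glycolysis and lactate export were lower in EpH4-PR cells more often than higher after loess. Under median centring of the arrays 6 member probes were lower (8.57%, against 1.72% of all probes). In that setting 13 were higher (18.6%, against 17.1% of all probes). After loess, 15 of the 70 probes were called lower (21.4%), against 3.83% of all probes. Another 2 were called higher (2.86%), against 2.26% of all probes. The 15 lower probes belong to 13 genes, namely Slc2a1, Gpi1, Pfkp, Pfkfb3, Aldoa, Aldoc, Tpi1, Pgk1, Eno2, Ldhb, Slc16a3, Pdk1 and G6pdx, and the 2 higher probes to Eno3 and Pgd. With the adjusted p alone and no limit on size, 31 member probes lay below 0 and 15 above 0, where 24.6% of all probes lay below and 25.7% above. The median ratio of the member probes was -0.07, against -0.01 for all probes. Among probes measured well above background in both channels the medians were -0.29 and 0.04, and with 1 probe per gene, the one with the highest mean signal, -0.60 and -0.02. Over all probes 37.1% of the calls were higher, against 48.2% with the log ratio of the scanner software and 90.9% under median centring. Counting only the probe with the highest mean signal for each gene, a choice made after the values were seen, left 12 of 39 genes lower, against 4.48% of 30337 genes, and 1 higher, against 2.28%.

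**Figure D1:**
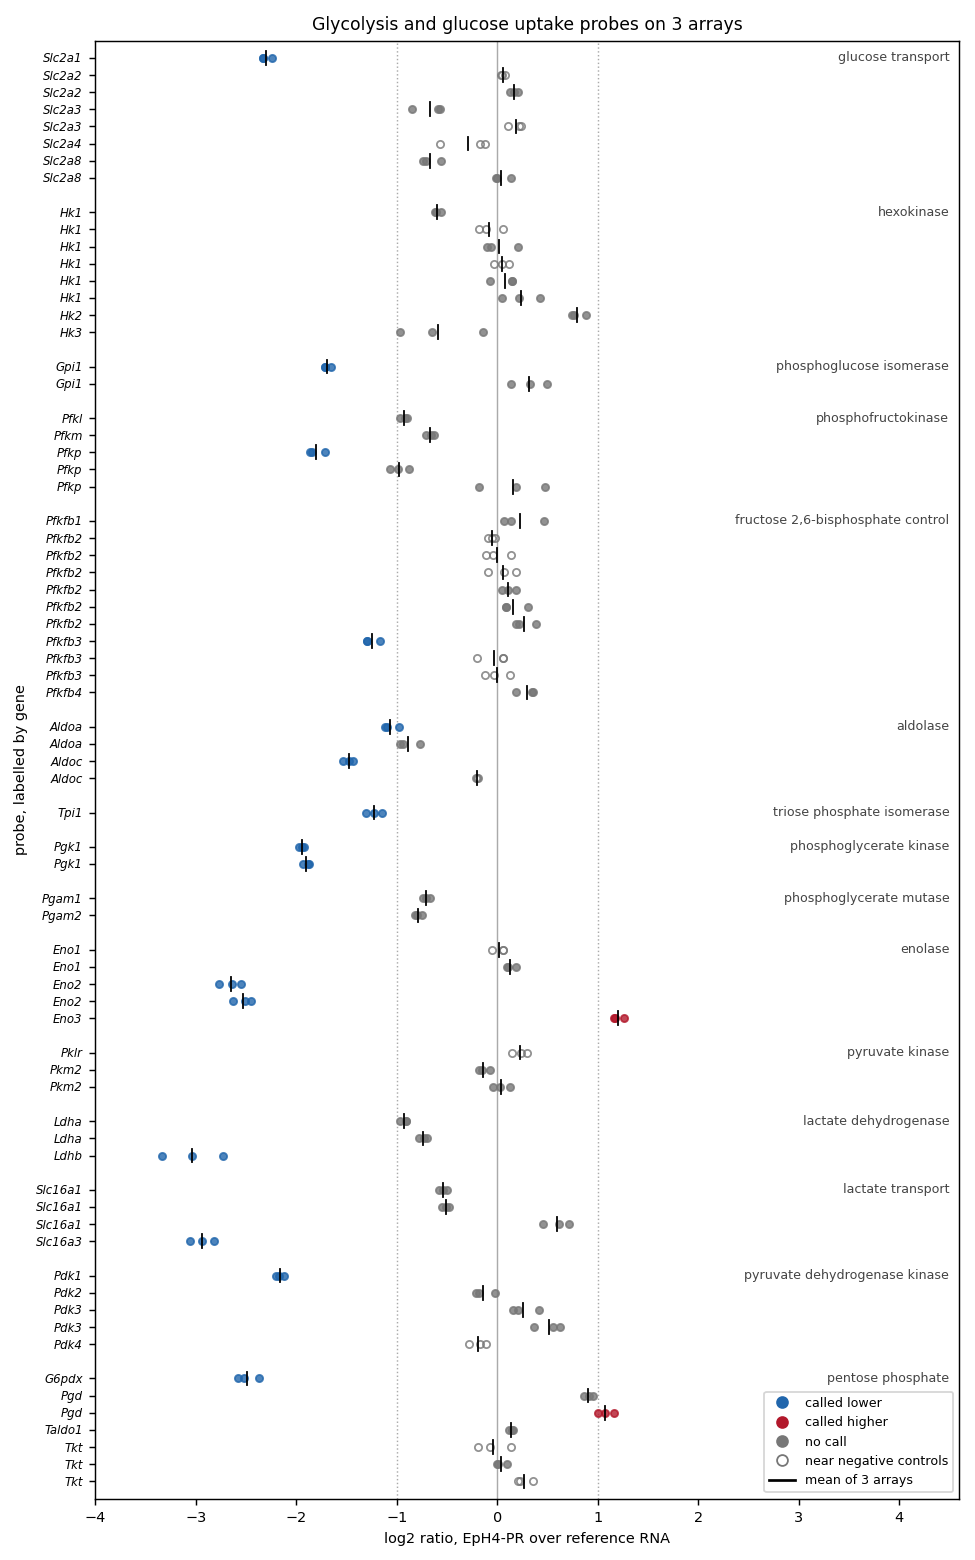
Log2 ratio to the reference RNA (x axis) for each of the 70 member probes (y axis, labelled by gene and grouped by pathway step), with a point for each of the 3 arrays and a bar at their mean; dotted lines mark ratios of -1 and 1. After loess, blue probes run from Ldhb at -3.03 up to Aldoa at -1.06, the red probes are Eno3 at 1.20 and Pgd at 1.08, and open circles mark probes whose signal was near that of the negative control spots.

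How the dyes were balanced bears on the abundant enzymes. Before loess, with each array only centred on its median, the median ratio of all probes was -0.14 for the 32351 probes with a mean log2 signal under 8 but 1.11 from 8 to 10, 1.44 from 10 to 12 and 1.32 at 12 or more. The ratio of all probes thus climbed with their signal, a trend that loess removes. At a mean log2 signal of 12 or more, the 12 member probes had a median of 0.70 before loess against 1.32 for all 599 such probes, and of -0.91 after loess against -0.18. In this range 5 of the 12 member probes were called lower (41.7%), against 10.7% of all probes, and from 8 to 10 it was 5 of 11 (45.5%) against 8.20%. From 10 to 12 the share was 1 of 8 (12.5%) against 8.29%, and under 8 it was 4 of 39 (10.3%) against 2.59%.

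**Figure D2:**
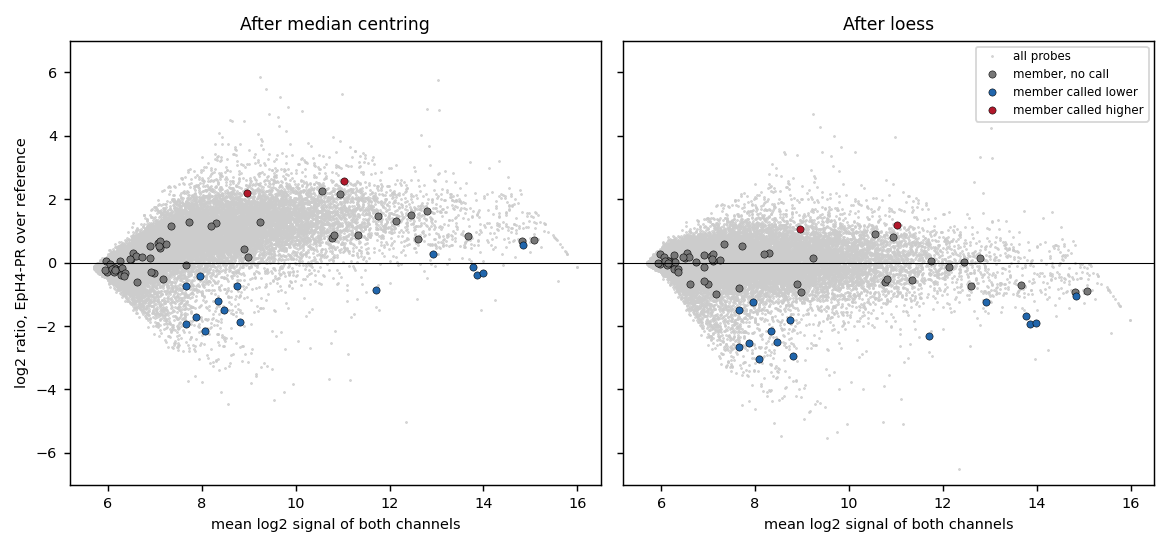
Log2 ratio to the reference RNA (y axis) against the mean log2 signal of both channels (x axis), averaged over 3 arrays, after median centring (left) and after loess (right), with all probes in grey and the 70 member probes coloured by their call after loess. On the left the cloud of all probes climbs to a median of 1.44 from 10 to 12, and the 12 member probes at 12 or more have a median of 0.70 on the left and -0.91 on the right, against 1.32 and -0.18 for all probes there.

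Of the 15 lower probes, 6 were called lower under each alternative that held them: both Eno2 probes and the probes of Ldhb, Slc16a3, G6pdx and Pdk1. For 13 of the 15 the ratio stayed below 0 in every alternative. The exceptions were Aldoa and Tpi1, at 0.54 and 0.27 under median centring. The 2 higher probes, of Eno3 and Pgd, were called in every alternative that held them.

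**Figure D3:**
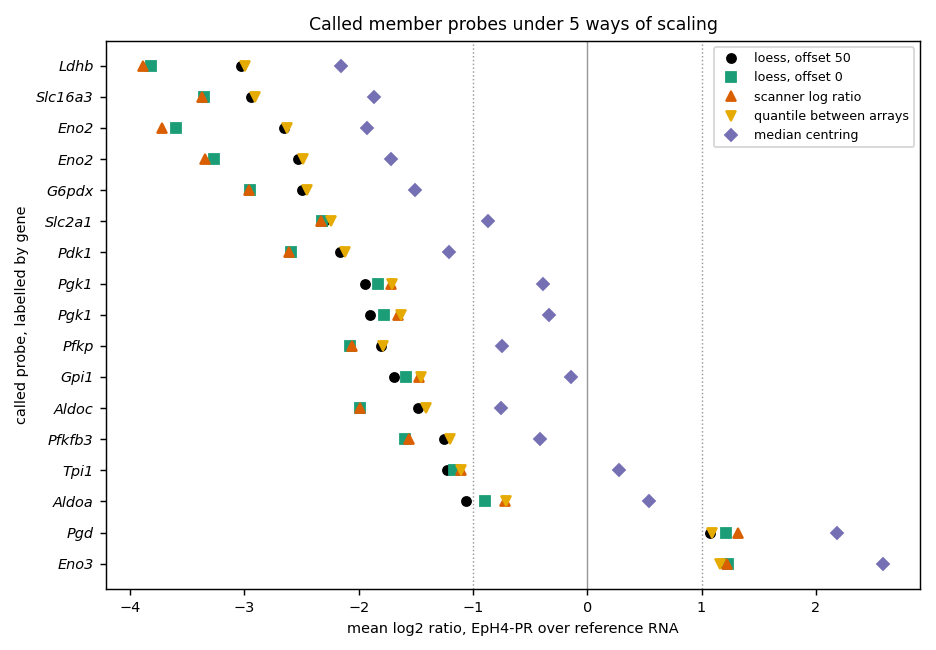
Mean log2 ratio over 3 arrays (x axis) of the 17 called member probes (y axis, labelled by gene) under 5 ways of scaling, each with its own symbol; dotted lines mark ratios of -1 and 1. Median centring moves every probe to the right, and of the lower probes only Aldoa (0.54) and Tpi1 (0.27) cross 0.

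The promoters of a few members are printed to show where the core motif of the hypoxia response element, ACGTG on either strand, lies in genes with different ratios. The windows are the 250 bases before the gene start, from RefSeq on build GRCm38.p6, written 5′ to 3′ on the strand of the gene, with each match to ACGTG or its reverse complement CACGT in capitals. A CACGTG hexamer, the E-box, also holds the motif and was counted as 1 place. Slc2a1, Pgk1 and Slc16a3 were called lower and hold the motif, Hk2 holds it but had a ratio above 0, and Eno2 was called lower without it.
Slc2a1, chr4:119108495-119108744, plus strand: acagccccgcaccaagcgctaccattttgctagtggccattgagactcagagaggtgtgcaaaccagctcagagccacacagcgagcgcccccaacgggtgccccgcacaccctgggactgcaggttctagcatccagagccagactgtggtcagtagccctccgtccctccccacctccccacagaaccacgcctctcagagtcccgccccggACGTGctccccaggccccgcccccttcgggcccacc
Pgk1, chrX:106186850-106187099, plus strand: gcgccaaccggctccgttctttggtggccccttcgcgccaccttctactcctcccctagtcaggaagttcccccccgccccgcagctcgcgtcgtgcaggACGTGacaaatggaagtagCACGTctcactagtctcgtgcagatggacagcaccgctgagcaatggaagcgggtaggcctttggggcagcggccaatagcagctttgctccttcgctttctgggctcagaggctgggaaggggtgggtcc
Slc16a3, chr11:120948817-120949066, plus strand: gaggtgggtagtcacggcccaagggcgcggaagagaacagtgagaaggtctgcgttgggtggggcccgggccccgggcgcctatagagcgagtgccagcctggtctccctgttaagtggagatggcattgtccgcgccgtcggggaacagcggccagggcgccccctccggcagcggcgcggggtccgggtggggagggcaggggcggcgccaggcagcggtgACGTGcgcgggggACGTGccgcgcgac
Hk2, chr6:82774455-82774704, minus strand: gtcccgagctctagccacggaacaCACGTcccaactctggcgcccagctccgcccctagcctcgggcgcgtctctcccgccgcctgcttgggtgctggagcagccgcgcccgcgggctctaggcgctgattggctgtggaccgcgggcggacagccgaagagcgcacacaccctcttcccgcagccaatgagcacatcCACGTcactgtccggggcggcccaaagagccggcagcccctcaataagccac
Eno2, chr6:124769674-124769923, minus strand: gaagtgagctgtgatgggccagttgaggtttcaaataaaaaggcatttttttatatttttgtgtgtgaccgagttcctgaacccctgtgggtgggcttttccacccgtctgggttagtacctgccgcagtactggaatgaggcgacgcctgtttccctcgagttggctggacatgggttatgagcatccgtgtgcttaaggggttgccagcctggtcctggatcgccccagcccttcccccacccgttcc
The Slc2a1 window holds 1 place and those of Pgk1, Slc16a3 and Hk2 hold 2 each. Windows were given for 38 of the 40 genes, and 15 of these (39.5%) had the motif in at least 1 window, against 18.5% of 27025 genes and 16.6% of 32851 windows overall. Among the members the motif was found for 5 of the 13 genes called lower (38.5%), 0 of the 2 called higher and 10 of the 22 measured without a call (45.5%). A match describes letters in the window and not a bound site.

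Glucose enters the cell through the Slc2a transporters. The log2 ratio of Slc2a1, the widely expressed basal transporter Glut1, was -2.24, -2.33 and -2.33 on the 3 arrays. All 3 arrays thus placed it well below the reference, at a mean of -2.30 ± 0.05 (SD, n = 3), which is 4.93-fold lower (limma, Benjamini-Hochberg adjusted p = 1.67e-05). Under median centring the ratio was -0.87 and the call was lost. Among the other transporters no probe was called after loess with the offset of 50. The 2 probes of Slc2a3, the high-affinity transporter of neurons, gave -0.67 and 0.19, and those of Slc2a8 gave -0.67 and 0.04. The lower probe of each was called with an offset of 0, at -1.35 and -1.10, and with the log ratio of the scanner software, at -1.59 and -1.21. Slc2a2, the transporter of liver and beta cells, lay at 0.06 and 0.17 and Slc2a4, the insulin-responsive transporter of muscle and fat, at -0.29. The Slc2a4 probe and 1 probe each of Slc2a2 and Slc2a3 were near the negative controls, here a signal under 1.5 times their median in both channels on every array, so their ratios say little about the gene.

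Hexokinases trap glucose in the cell by phosphorylation. Hk2, the isozyme that is inducible in many tissues, read 0.89, 0.76 and 0.74 on the 3 arrays. Its mean of 0.80 ± 0.08 (SD, n = 3) lay above the reference (limma adjusted p = 0.000204) but under the size limit for a call, and it stood at 2.18 under median centring. The 6 probes of Hk1, the constitutive isozyme, ran from -0.60 to 0.23, and the probe with the most signal was at -0.60 ± 0.03 after loess but 0.77 under median centring. The difference in ratio between that Hk1 probe and Hk2 was 1.39 ± 0.05 in favour of Hk2 on the same arrays, and 1.41 under median centring. Hk3, a hexokinase of blood cells, varied most between arrays, at -0.97, -0.14 and -0.65. Its arrays did not settle on a level, and it was not called.

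Glucose phosphate isomerase, Gpi1, had 2 probes that disagreed. One read -1.71, -1.71 and -1.65, a mean of -1.69 ± 0.04 (limma adjusted p = 2.27e-05), and became -0.14 under median centring. The other read 0.49, 0.33 and 0.14 at Cy5 signals of 96.6 to 136, where the median negative control spot read 57.3 to 74.1. The first probe had Cy5 signals of 12264 to 15196.

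Phosphofructokinase makes the committed step, and all 3 of its genes had probes below 0 after loess. For Pfkp, the platelet-type subunit, the probe with the most signal read -1.84, -1.71 and -1.86. That mean of -1.81 ± 0.08 was called lower (limma adjusted p = 2.67e-05), a call lost at -0.75 under median centring. A second probe was just short of the size limit at -0.98 ± 0.10, but was called lower in 4 alternatives, down to -1.53. The last lay at 0.16 ± 0.33 with arrays on both sides of 0. The liver-type Pfkl at -0.93 ± 0.04 and the muscle-type Pfkm at -0.67 ± 0.04 were below 0 by adjusted p but not called. Both turned positive under median centring, at 0.18 and 0.42. With an offset of 0 and with the log ratio of the scanner software Pfkl was called lower, down to -1.06.

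The Pfkfb enzymes set the level of fructose 2,6-bisphosphate, the activator of phosphofructokinase. Pfkfb3, the form with the strongest kinase activity, had 1 probe at -1.29, -1.17 and -1.29. All 3 arrays were close, with a mean of -1.25 ± 0.07 that was called lower (limma adjusted p = 5.48e-05), and median centring took it to -0.41. Its other 2 probes were near the negative controls, at -0.03 and 0.00. None of the 6 Pfkfb2 probes, from -0.05 to 0.26, was called, nor was Pfkfb1, the liver form, at 0.22, or Pfkfb4 at 0.30.

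**Figure D4:**
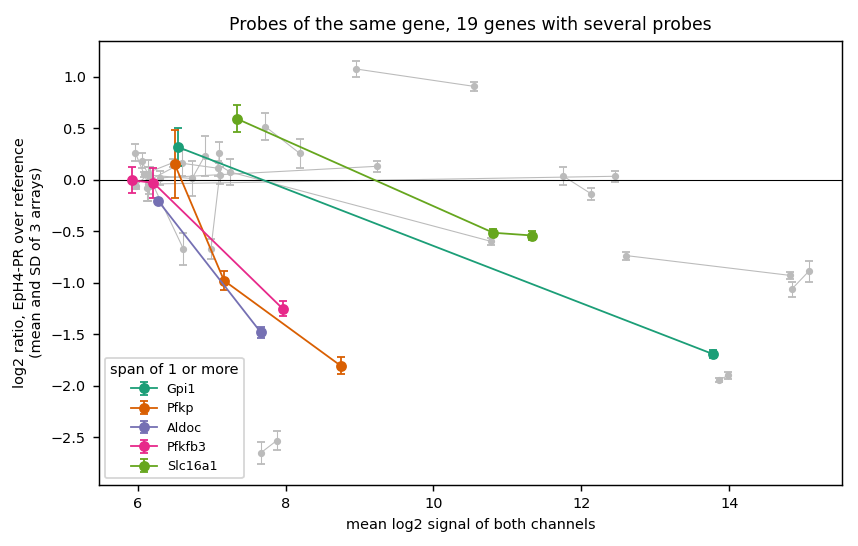
Mean log2 ratio with its SD over 3 arrays (y axis) against mean log2 signal of both channels (x axis) for the 19 genes with several probes, with lines joining probes of 1 gene. The 5 coloured genes span at least 1 log2 unit, from Slc16a1 at 1.13 to Gpi1 at 2.01, and in 9 genes the probes lie within 0.3.

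The probes of some genes thus disagreed. Of the 19 genes with several probes, 5 spanned at least 1 log2 unit, namely Gpi1 (2.01), Pfkp (1.96), Aldoc (1.28), Pfkfb3 (1.25) and Slc16a1 (1.13), and 9 spanned less than 0.3. Of these 5, Aldoc and Pfkfb3 had probes near the negative controls, while Gpi1, Pfkp and Slc16a1 had none. In all, 16 of the 70 member probes (22.9%) were near the negative controls, against 42.9% of all probes. None of these 16 was called, but neither was any of the 17666 such probes among all probes. The lack of calls therefore says nothing about these members. Slc2a4, Pklr and Pdk4 had only such probes.

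Aldolase splits the hexose into trioses. Aldoa, the main form of most tissues, read -1.12, -1.09 and -0.98 on the probe that was called, a mean of -1.06 ± 0.07 (limma adjusted p = 8.12e-05), and its second probe stood at -0.89 ± 0.10. Their Cy5 signals reached 51758, and median centring took both above 0, to 0.54 and 0.73. The call of Aldoa was also lost with a background offset of 0, with the log ratio of the scanner software and with quantile normalization. Aldoc, the brain-type aldolase, read -1.47, -1.43 and -1.54 on one probe, a mean of -1.48 ± 0.05 (limma adjusted p = 3.15e-05) that lost its call at -0.75 under median centring. Its other probe, near the negative controls, gave -0.20.

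The triose and phosphoglycerate enzymes follow. Tpi1, triose phosphate isomerase, read -1.31, -1.15 and -1.23, a mean of -1.23 ± 0.08 (limma adjusted p = 6.00e-05), and 0.27 under median centring. Pgk1, phosphoglycerate kinase, which makes the first ATP of the pathway, was measured by 2 probes that matched closely. They read -1.93, -1.88 and -1.89 on the first and -1.97, -1.94 and -1.93 on the second. With means of -1.90 ± 0.03 and -1.95 ± 0.02 (limma adjusted p = 1.91e-05 and 1.81e-05) Pgk1 was 3.73-fold and 3.85-fold lower than the reference, and -0.34 and -0.39 under median centring. The Pgk1 promoter, printed above, holds 2 places of the motif. So does that of Hk2, which lay above the reference, and a window of Ldha, which was not called, holds 3. Pgam1, the broadly expressed phosphoglycerate mutase, read -0.74, -0.71 and -0.67, not a call, and 0.84 under median centring. Pgam2, the muscle mutase, was at -0.79 ± 0.04 and not called. It was called lower with an offset of 0 and with the log ratio of the scanner software. Across the alternatives the Pgam2 ratio ran from -1.07 to -0.064.

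The 3 enolase genes went separate ways. Eno2, the neuronal or gamma enolase, was lower on both probes, at -2.51, -2.46 and -2.63 on the first and -2.64, -2.55 and -2.77 on the second. Means of -2.53 ± 0.09 and -2.65 ± 0.11 (limma adjusted p = 1.81e-05 for both) make it 5.78-fold and 6.29-fold lower. The Cy5 signals of these probes were 110 to 155, where the median negative control spot read 57.3 to 74.1. Across the alternatives their ratios ran from -3.35 to -1.72 and from -3.72 to -1.93. Eno3, the muscle or beta enolase, was in contrast higher, at 1.16, 1.17 and 1.27. Its mean of 1.20 ± 0.06 (limma adjusted p = 5.11e-05) was the highest of the 70 member probes. Eno1, the alpha enolase of most tissues, lay near the reference at 0.13 ± 0.05 on its better measured probe, and 0.02 on a probe near the negative controls. The Eno1 value is uncertain, because a near-identical processed copy, Eno1b, could share its probes. On the same arrays Eno3 exceeded Eno2 in ratio by 3.73 ± 0.14 (SD, n = 3), and by 4.31 under median centring.

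Neural (neuronal and astrocyte) and muscle markers were examined beside these isozymes. None of the 11 probes of Gfap, Nefl, Snap25 and Syt1 was called, with ratios from -0.50 to 0.17, and their summed signal was 735 to 939 in Cy5 and 1047 to 1394 in Cy3. Only 3 of these 11 probes were well above background in both channels on every array, and 5 were so in EpH4-PR on no array. Their lack of calls therefore says little. Among the 5 probes of Acta1, Ckm, Des and Myh4, Acta1 alone was called, lower at -2.09 (20%, against 3.83% of all probes). The others ran from -0.47 to 0.35. The summed signal of the 5 probes was 396 to 499 in Cy5 and 676 to 827 in Cy3. By adjusted p alone, 2 muscle probes lay above 0, both of Myh4 at 0.35 and 0.16. Another 2 lay below 0, Acta1 and Des, the latter at -0.47. Of the 11 neural probes 1 lay above 0 and 4 below by adjusted p. The part of muscle or neural RNA in these ratios was not tested.

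Pyruvate kinase and lactate dehydrogenase end the pathway. Pkm2 read -0.19, -0.08 and -0.15 on the probe with the most signal, close to the reference, and its second probe was at 0.04 ± 0.09, though under median centring they stood at 1.32 and 1.48. The files hold no probe sequences, so it is not known whether these probes tell the M1 and M2 splice forms apart. Pklr, the liver and red cell kinase, was near the negative controls. Ldha, which favours the making of lactate, was below 0 by adjusted p on both probes, at -0.93 ± 0.04 and -0.74 ± 0.04, but not called, and reached 0.68 and 0.75 under median centring. Ldhb, the heart-type subunit, was the lowest of the 70 member probes, at -3.04, -2.72 and -3.33. Its mean of -3.03 ± 0.30 (limma adjusted p = 5.49e-05) is 8.18-fold lower than the reference, with the widest spread among the called members. Its Cy5 signals were 122 to 159, where the median negative control spot read 57.3 to 74.1. Across the alternatives the Ldhb ratio ran from -3.89 to -2.15, so the size of the fold is uncertain. Within the arrays the Ldha ratio exceeded that of Ldhb by 2.10 ± 0.34, and by 2.83 under median centring.

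Lactate leaves through monocarboxylate transporters, whose 2 genes also parted. Slc16a3, the exporter Mct4 of strongly glycolytic cells, read -2.94, -2.82 and -3.06. All arrays were far below 0, with a mean of -2.94 ± 0.12 that is 7.67-fold lower (limma adjusted p = 1.78e-05), and median centring left it at -1.86. Slc16a1, the widespread transporter Mct1, gave -0.51 ± 0.04 and -0.54 ± 0.04 on 2 probes, which turned to 0.86 and 0.87 under median centring, and 0.59 ± 0.13 on the other. The Slc16a1 ratio was above that of Slc16a3 by 2.40 ± 0.11 on the same arrays. Bsg, the chaperone that carries these transporters to the membrane, was itself called lower at -1.18 ± 0.04 (limma adjusted p = 4.64e-05), and -0.08 under median centring.

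Of the pyruvate dehydrogenase kinases, Pdk1 was lower. It read -2.17, -2.12 and -2.20, with a mean of -2.16 ± 0.04 (limma adjusted p = 1.76e-05), 4.48-fold under the reference. Pdk3 lay above 0 on both probes, at 0.52 ± 0.13 and 0.26 ± 0.14, without a call. Pdk2 at -0.14 ± 0.10 was not called and changed to 0.15 under median centring, and Pdk4 at -0.19 ± 0.09 was near the negative controls.

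The first 2 dehydrogenases of the pentose phosphate pathway stood on opposite sides. G6pdx, which commits glucose 6-phosphate to the pathway, read -2.52, -2.37 and -2.58, a mean of -2.49 ± 0.11 and 5.63-fold lower (limma adjusted p = 2.00e-05). Pgd, the next oxidative enzyme, read 1.00, 1.07 and 1.16 on one probe, which was called higher at 1.08 ± 0.08 (limma adjusted p = 8.33e-05). Its second probe, at 0.91 ± 0.05, was just under the size limit. The Pgd ratio exceeded that of G6pdx by 3.40 ± 0.09 on the same arrays. Tkt and Taldo1, which link the pathway back to glycolysis, stayed close to the reference at 0.04 and 0.14 on their best measured probes, though at 1.51 and 1.64 under median centring. The other 2 Tkt probes were near the negative controls. The pairs of isozymes and neighbouring enzymes compared in this and the preceding paragraphs were picked after their values were seen and are given as descriptions.

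Genes related to glucose use were listed beside the set. These lists covered 109 genes, of which 101 had a probe, and of their 164 probes 15 were called lower (9.15%, against 3.83% of all probes) and 4 higher (2.44%, against 2.26%), with a median of -0.10. Of the 15 lower probes, 8 belong to hypoxia-inducible genes and 4 to regulators. In both channels on every array 129 of the 164 probes were well above background, against 25727 of all 41174. The share of all probes called lower rose with signal, from 2.59% under a mean log2 signal of 8 to 10.7% at 12 or more. The lists, also those of hypoxia-inducible genes and regulators described below, were not matched for signal. No probe was called among 11 of further glucose transporters or 26 of further glycolytic and glycerol phosphate enzymes. The same held for 15 of the pyruvate dehydrogenase complex and mitochondrial pyruvate entry. Of these 3 lists, 4, 15 and 14 probes were well above background in both channels on every array. With 3.83% of all probes lower and 2.26% higher, lists of this size would hold few calls. In further pentose phosphate genes 2 of 16 probes were higher, for Rpia, which makes ribose 5-phosphate, at 1.72 ± 0.06 and Prps2, which makes the nucleotide precursor PRPP, at 1.11 ± 0.13. The second Prps2 probe lay at 0.14 ± 0.08 and was not called. Pck2, the mitochondrial phosphoenolpyruvate carboxykinase, was lower at -1.64 ± 0.05, but at -0.40 and not called under median centring. Pygl, the liver-type glycogen phosphorylase, was lower at -1.51 ± 0.05 on 1 of its 2 probes, which kept the call under median centring at -1.25.

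Genes known to respond to hypoxia outside glycolysis were lower too. Of 13 probes for 9 such genes, 8 were called lower (61.5%, against 3.83% of all probes) and none higher (against 2.26%), with a median of -1.81 against -0.01 for all probes after loess, and 3 of the 8 kept the call and 7 stayed below 0 under every alternative that held them. Ndrg1, a stress-induced differentiation gene, read -3.85, -3.85 and -3.97. Bnip3, a mitochondrial mitophagy receptor, read -3.03, -2.94 and -2.96. These and P4ha2, a collagen prolyl hydroxylase, at -2.43 ± 0.02 were called under each alternative. The related hydroxylase P4ha1 was lower on both probes, at -1.88 and -1.83, as were Adm, the vasodilator peptide adrenomedullin, at -1.81 and 1 of the 2 Higd1a probes at -2.04. Ddit4, an inhibitor of mTOR signalling, was at -1.26 but at 0.20 under median centring. Vegfa, with 3 probes from -0.98 to 0.18, and Car9, at -0.01, were not called.

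Among 28 probes for regulators of glycolytic genes, 4 were called lower (14.3%, against 3.83% of all probes) and 1 higher (3.57%, against 2.26%). Txnip, a glucose-responsive brake on glucose uptake, read -2.96, -2.92 and -3.01. Egln3, a prolyl hydroxylase that marks Hif1a for destruction and is itself induced by hypoxia, read -2.51, -2.45 and -2.76. Both of these probes were called lower under each alternative. The other Txnip probe was at -0.77 ± 0.07 and not called. Hif1a itself was at -1.04 ± 0.03, although it stood at 0.13 under median centring. The probes of Arnt, the partner of Hif1a, disagreed. One was called lower at -1.46 ± 0.03, a call lost at -0.43 under median centring, while its other 3 probes lay at 0.02, 0.02 and 0.42. Those of Trp53, the p53 tumour suppressor gene, also disagreed, with 1 called higher at 1.53 ± 0.22 and the other at -0.28 ± 0.07 (limma adjusted p = 0.00714).

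**Figure D5:**
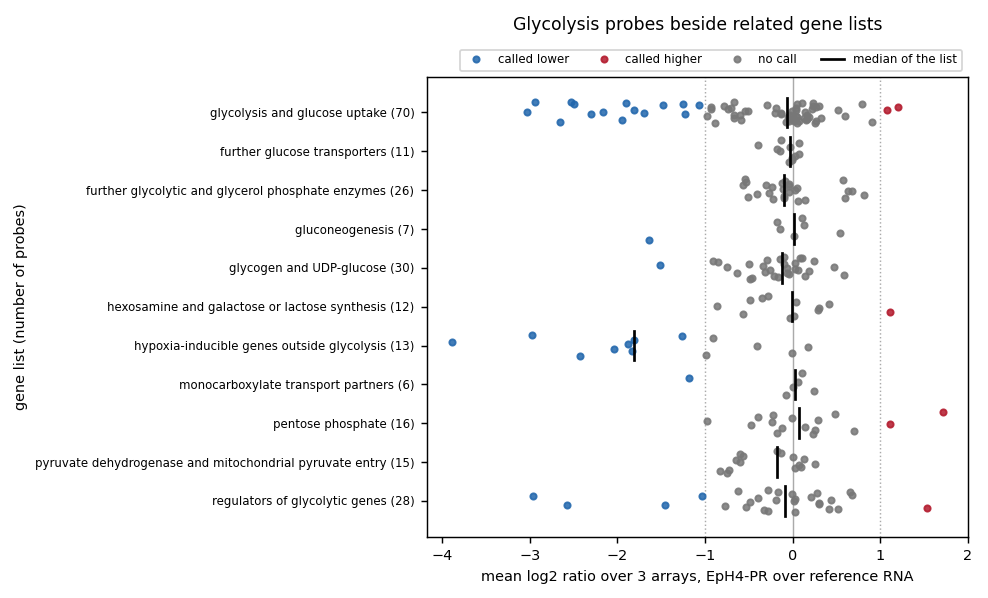
Mean log2 ratio to the reference RNA over 3 arrays (x axis) for each probe of the glycolysis set and of 10 related gene lists (y axis, with the number of probes), coloured by call, with a bar at the median of each list. After loess the hypoxia-inducible list has its median at -1.81, whereas the medians of the other lists lie between -0.18 and 0.07.

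The reference RNA also differs from EpH4-PR cells in cell type. Of 11 probes for the mesenchymal genes Col1a1, Col3a1, Fn1 and Vim, 5 were called lower in EpH4-PR (45.5%, against 3.83% of all probes), with Vim at -6.51. The summed signal of the 11 probes was 3959 to 4305 in Cy5 against 36864 to 42277 in Cy3. Of 8 leukocyte probes 2 were lower (25%, against 3.83% of all probes), both of the single gene Ptprc. Only 3 of the 8 were well above background in both channels on every array. No probe of the liver markers Alb, Apoa1, Fgb and Ttr was called. The part of these cell types in the glycolytic ratios was not tested.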

How the data were processed

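Total RNA of EpH4-PR cells (Cy5) and a reference RNA (Cy3) was measured on 3 arrays. The authors deposited the output of Agilent Feature Extraction 8.1.1.1, with spot intensities in both channels, local background and a log10 ratio, before normalization between arrays. A deposited table of fold changes with p-values holds the authors' own comparison and was not used. Mean intensities were corrected with limma's normexp (offset 50) and normalized by loess within each array, control and outlier spots were left out, and spots of a probe were averaged. Each log2 ratio was then tested against 0 by moderated statistics (lmFit, eBayes) over all 41174 probes (R 4.3.3, limma 3.58.1, Python 3.11.15). In simulated arrays 100% of 200 probes changed by 1.5 log2 units were recovered with 0 false calls. The simulated ratios carried only random noise with the spread of each probe and no dye trend. They therefore do not test the normalization. RefSeq accessions (GRCm38.p6) matched 21445 probes, where 23705 of the 41174 carry such an accession. They matched 52 of the 70 member probes. For the other probes the gene name on the arrays was used. Probes of a gene were kept apart. Every member was to be named, with array values for members with a called probe, for Slc2a1, and for the brightest member of each step without one. Members and lists were chosen with earlier results of these data known. Some list genes are not reported here. Alternatives covered background, normalization, filters, left-out arrays and the methods' t-test. The number of arrays limits the precision.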

Additional observations from a re-analysis of the deposited data

How the results depend on the processing

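The 15 lower and 2 higher member probes kept their counts, or moved by at most 4 probes, under every alternative except median centring, which gave 6 lower and 13 higher (7031 higher and 708 lower over all probes, a share of higher calls of 90.9% against 37.1%), and except for the higher count with 1 probe per gene, which was 1. A normexp offset of 0 gave 3125 higher and 3905 lower over all probes, and the scanner's log ratio 3616 and 3887. In the related lists these 3 settings gave 30 higher and 6 lower, 8 and 27, and 13 and 27. The median member ratio of -0.07 became 0.12 under median centring, -0.10 with offset 0, -0.22 with the scanner's ratio, -0.041 with quantile normalization, -0.16 with the filter on dim probes, -0.60 with 1 probe per gene, and -0.12 to -0.070 with an array left out, where the lowest value came without replicate 3. Under median centring these probes changed sign: Slc2a2 -0.19, Slc2a3 -0.054, Hk1 0.77 and -0.18, Pfkl 0.18, Pfkm 0.42, Pfkfb2 -0.18, Aldoa 0.54 and 0.73, Tpi1 0.27, Pgam1 0.84, Eno1 -0.17, Pkm2 1.32, Ldha 0.68 and 0.75, Slc16a1 0.86 and 0.87, Pdk2 0.15, Ddit4 0.20 and Hif1a 0.13. The others that changed sign had ratios near 0: Pfkfb3 0.19 with offset 0, Hk1 -0.047 and Tkt 0.58 with the scanner's ratio, Pfkfb3 0.00069 and 0.0013 with quantile normalization, and Hk1 -0.046 and Pfkfb3 0.074 with median spot intensities. With 1 array left out, ratios of Slc2a8 (-0.0045 to 0.069), Hk1 (-0.083 to 0.071), Pfkp (-0.00070 to 0.33), Pfkfb2 (-0.013 to 0.13), Tkt (-0.13 to 0.033), Pfkfb3 (-0.072 to 0.052 and -0.071 to 0.055), Eno1 (-0.0015 to 0.058) and Pkm2 (-0.0091 to 0.079) took both signs. The cause of these changes was not tested. No paired analysis was possible because all arrays belong to 1 group. The slide as a block was not run because each slide holds 1 array. Dim probes read near the negative controls and their ratios shrink towards 0, so low-signal members are limited by signal over background.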
